A study of Mus musculus with 62 samples.

Results

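Haematopoietic stem and progenitor cells (HSPCs) that had lost the histone chaperone Daxx held 7998 sites at 24 weeks post induction (w.p.i.) where trimethylation of histone H3 lysine 9 (H3K9me3) was higher and trimethylation of lysine 27 (H3K27me3) was lower than in wild-type (WT) cells. These exchange sites were chosen by the measured values themselves. A site listed for H3K9me3 was taken when both Daxx-KO values lay above both WT values, which is called a gain here, and when it shared at least 1 bp with a site listed for H3K27me3 whose Daxx-KO values both lay below both WT values, called a loss. The exchange sites were 7998 of the 150482 sites listed for H3K9me3 at 24 w.p.i., and the 14 comparisons used here listed 1743368 sites in all. Of all listed H3K9me3 sites 46.9% were gains, and of the 134001 listed H3K27me3 sites 56.8% were losses. Because the values of both marks at 24 w.p.i. selected the sites, those values are a description and carry no test.

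The chromatin was profiled by CUT&Tag, a method that uses an antibody to bring the transposase Tn5 to a histone mark or a protein and sequences the DNA fragments released there. The cells came from the bone marrow of C57BL/6 mice, were depleted of lineage-positive cells and enriched for c-Kit with magnetic beads, and the series holds 62 samples. At 24 w.p.i. the groups compared were 2 Daxx F/F Cre +/- mice (Daxx-KO) and 2 Daxx +/+ Cre +/- mice (WT). The same 4 mice gave the libraries of all 5 antibodies, to H3.3, Pu.1, H3K27ac, H3K9me3 and H3K27me3. At 3 w.p.i. other mice of these genotypes were profiled for all but H3K27me3, with 2 libraries per genotype. At 8 w.p.i. H3K9me3 and H3K27me3 were profiled with 3 libraries per genotype, and there Cre +/- mice that were both Daxx F/F and Pu.1 F/F (DKO), which lack the transcription factor Pu.1 as well, were added. The series also holds libraries of 2 DKO mice at 24 w.p.i., for all antibodies but Pu.1, which are in none of the comparisons used here. All groups carried the Mx1Cre transgene, which is driven by an interferon-responsive promoter that is not limited to blood cells and was induced with polyinosinic:polycytidylic acid. The floxed Daxx line was made in C57BL/6N and the Cre line in C57BL/6J, and the ages of the mice are not in the sample labels. Libraries from 2 mice against 2 cannot reach an exact permutation p under 0.333, and those from 3 against 3 none under 0.1.

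The labels were checked at the floxed gene and at marker genes. Over chr17:33909801-33913400, inside Daxx, H3K27ac at 24 w.p.i. was at 113 and 93.7 normalized reads in the Daxx-KO mice and at 858 and 368 in the WT mice. All 9 of 9 marker genes of stem and progenitor cells had a listed H3K27ac site, with summed values of 6138 and 6301 in Daxx-KO, against 3340 and 2590 in WT. Of the 9 markers of lineage-positive cells 7 had one, with sums of 1292 and 1358 in Daxx-KO, against 979.6 and 1096 in WT, and Cd8a and Ms4a1 had none. The stem and progenitor markers were thus higher in both Daxx-KO mice, and the part of a different make-up of the cells in the results below was not tested. In such bulk libraries a change in the share of cells that carry a mark and a change in the mark per cell cannot be told apart.

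H3K27me3 is laid down by Polycomb repressive complex 2 and covers developmental and lineage genes that a cell keeps silent but can reopen. H3K9me3 is laid down by Setdb1 and other methyltransferases and marks heterochromatin, repeats and gene families that are kept silent more durably. Daxx works with Atrx to place the histone variant H3.3, much of it in heterochromatin, and is linked to H3K9me3 there. The marks mostly occupy different places in the genome, which is why sites that move from one towards the other were collected.

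The reference sequence in the middle of the overlap of both marks is shown for the 4 sites with the largest exchange score, the sites where the marks were separated most cleanly in all mice. The exchange score is the smaller of 2 log2 ratios, that of the lowest Daxx-KO over the highest WT value for H3K9me3 and that of the lowest WT over the highest Daxx-KO value for H3K27me3, with 1 added to each value. Each run is 200 bases of the plus strand of mm10 (RefSeq GRCm38), 5′ to 3′, with CG dinucleotides in capitals. The windows are chr5:115256751-115256950 in Rnf10, chr4:43516026-43516225 in Tpm2, chr15:93398801-93399000 in Pphln1 and chr16:44828101-44828300 in Cd200r4. The middle of the H3K9me3 site lies in a coding exon at Rnf10 and Tpm2 and in an intron at Pphln1 and Cd200r4. They hold 2, 2, 7 and 0 CG dinucleotides, and 22, 110, 57 and 46 of their bases are marked as repeats.
Rnf10: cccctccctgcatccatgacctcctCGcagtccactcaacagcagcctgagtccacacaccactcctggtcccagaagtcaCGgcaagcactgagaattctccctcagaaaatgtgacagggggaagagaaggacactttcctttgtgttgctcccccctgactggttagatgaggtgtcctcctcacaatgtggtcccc
Tpm2: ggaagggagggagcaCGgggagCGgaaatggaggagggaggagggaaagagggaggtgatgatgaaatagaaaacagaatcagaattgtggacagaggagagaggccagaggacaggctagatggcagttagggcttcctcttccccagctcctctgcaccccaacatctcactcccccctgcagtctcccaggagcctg
Pphln1: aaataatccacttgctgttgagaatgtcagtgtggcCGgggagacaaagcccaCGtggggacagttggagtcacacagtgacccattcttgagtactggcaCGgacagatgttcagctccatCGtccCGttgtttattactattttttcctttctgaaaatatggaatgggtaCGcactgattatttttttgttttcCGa
Cd200r4: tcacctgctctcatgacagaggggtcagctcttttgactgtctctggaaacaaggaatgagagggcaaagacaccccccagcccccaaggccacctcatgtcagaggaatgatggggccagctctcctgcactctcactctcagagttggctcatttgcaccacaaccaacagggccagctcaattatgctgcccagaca

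Across the exchange sites, H3K9me3 was several times higher in Daxx-KO and low in WT. The median over the 7998 sites was 39.5 and 71.9 normalized reads in the 2 Daxx-KO mice and 12.4 and 5.62 in the WT mice. In reads before normalization, a typical site held 62.1 and 69.0 in Daxx-KO, against 7.96 and 6.01 in WT. The median log2 difference was 2.46 (quartiles 1.68 and 3.28), against 1.94 at the other 62589 H3K9me3 gains, and 92.0% of the sites differed at least 2-fold. The first WT mouse was at 0 at 1062 sites and the second at 2297, and at 496 sites (6.2%) both were at 0, and at 2005 sites (25.1%) the WT mean was already 20 or more. The Daxx-KO mice themselves differed, with the median of the second above that of the first.

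H3K27me3 at the same places was lower in Daxx-KO but mostly not absent. The exchange sites lay over 8100 of the 76097 H3K27me3 losses (10.6%), in 8361 overlapping pairs. The median over these H3K27me3 sites was 27.1 and 31.3 normalized reads in Daxx-KO, against 84.0 and 71.4 in WT. The median log2 difference was -1.35, and it was -1.32 at the other 67997 H3K27me3 losses. In Daxx-KO a median of 38.4% of the WT level was left (quartiles 27.6% and 49.3%). Under 10% was left at 205 sites (2.53%), under 25% at 1617 (20.0%) and over 50% at 1932 (23.9%), and both Daxx-KO mice were at 0 at only 10 sites. The word replacing therefore describes a minority of the sites, and the others carried less H3K27me3 together with more H3K9me3. The libraries are of many cells, so whether both marks lay on the same chromosomes or in different cells was not measured.

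**Figure D1:**
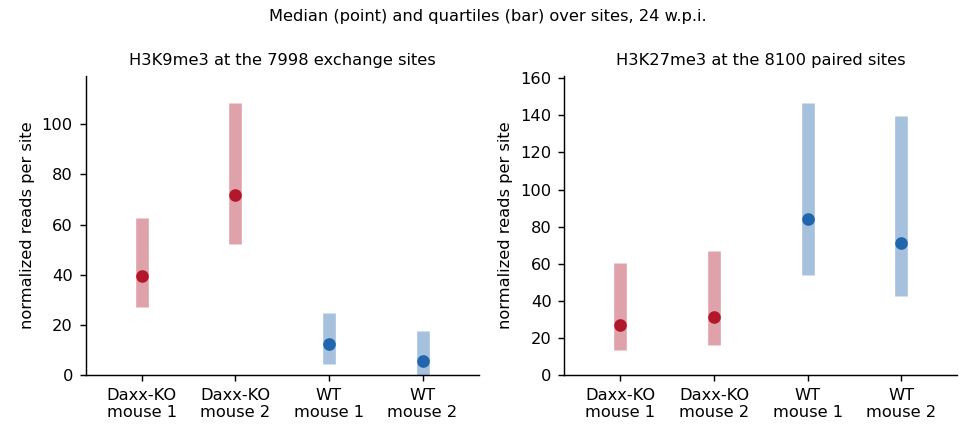
Median (point) and quartiles (bar) of normalized reads per site in each mouse at 24 w.p.i., for H3K9me3 at the 7998 exchange sites (left) and H3K27me3 at the 8100 sites under them (right). The H3K9me3 medians of the Daxx-KO mice, 39.5 and 71.9, lie above those of the WT mice, 12.4 and 5.62, and the H3K27me3 medians lie the other way round, with Daxx-KO well above 0.

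The marks met closely where they met. The overlap took up a median of 66.7% of the H3K9me3 site, or 550 bp, and it was at least 50% of the site at 5520 of the exchange sites (69.0%). It was 50 bp or less at 307. The middles of the paired sites were a median of 325 bp apart. The exchange score had a median of 0.71 and a maximum of 4.33, and it reached 1, which is a 2-fold separation of every Daxx-KO from every WT value for both marks, at 1979 sites (24.7%). It reached 2 at 104 sites.

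The reverse and the parallel combinations also occurred. H3K9me3 losses lay over H3K27me3 gains at 2914 sites, which were 3.85% of the H3K9me3 losses and, on the other side, 5.47% of the H3K27me3 gains. Both marks were gained at 4297 H3K9me3 sites, 6.09% of the gains, and both were lost at 3970, 5.24% of the losses. The exchange sites were 11.3% of the H3K9me3 gains. Of the exchange sites 192 also touched an H3K27me3 gain. The number of listed sites differs between the marks and directions, and these shares were not tested against each other.

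At the 12 sites with the largest exchange score, H3K9me3 was near 0 in both WT mice and H3K27me3 near 0 in both Daxx-KO mice, except at Nedd4. The first lies at chr5:115256601-115257350 in Rnf10, a RING-finger ubiquitin ligase. H3K9me3 was at 19.1 and 64.6 normalized reads in Daxx-KO, against 0 and 0 in WT, and H3K27me3 was at 0 and 0 in Daxx-KO, against 39.2 and 25.7 in WT. H3.3 was also gained at this site, with 81.7 and 90.6 in Daxx-KO, against 48.0 and 20.7 in WT. At chr4:43515651-43516300 in Tpm2, which encodes beta-tropomyosin, H3K9me3 was at 26.8 and 45.9 against 0 and 0, and H3K27me3 at 0 and 1.84 against 36.4 and 42.8. Here H3K27ac was lost, at 73.4 and 126 in Daxx-KO, against 208 and 279 in WT.

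The third site, chr15:93398501-93399100, lies near a start site of Pphln1 in its intron. Pphln1 encodes periphilin, a subunit of the HUSH complex that promotes H3K9me3 at repeats. H3K9me3 was at 33.2 and 50.0 in Daxx-KO, against 1.55 and 1.87 in WT, and H3K27me3 at 0 and 0 against 37.3 and 34.3. The fourth, chr16:44827901-44828700, lies in an intron of Cd200r4, a receptor of the CD200 receptor family on myeloid cells. H3K9me3 was at 19.1 and 54.2 against 0 and 0, and H3K27me3 at 0 and 1.84 against 43.0 and 28.6. These are small numbers of reads, and the same clean separation in both mice comes from the way the sites were ranked.

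Among the others, the site at chr2:26599751-26600650 in Agpat2, an enzyme of phospholipid and triglyceride synthesis, combined H3K9me3 with strong H3K27ac. H3K9me3 was at 37.0 and 139 in Daxx-KO, against 0 and 0 in WT, and the overlapping H3K27ac site was at 2823 and 2664 against 1536 and 1554. At chr9:72672001-72672600 in Nedd4, a ubiquitin ligase, the WT level of H3K27me3 was the highest of the 12, at 301 and 453, and 41.5 and 22.1 remained in Daxx-KO. At chr3:143544301-143545050, a site between genes with Lmo4 as the nearest, H3.3 was lost, at 2.21 and 0 against 72.0 and 80.9. The other sites of the 12 lay nearest to Pde2a, Zbtb18, Parp12, Col28a1 and Grm4, with H3K9me3 at 6.22 or less in WT and H3K27me3 at 9.2 or less in Daxx-KO.

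The widest overlap lay at chr1:24611051-24616700, over the predicted gene Gm28437, and it stood apart. H3K9me3 was at 9691 and 29303 in the Daxx-KO mice against 4489 and 3643. H3.3 and Pu.1 ran with it, at 10071 and 29575 against 3557 and 3754 for H3.3 and at 8064 and 20752 against 3500 and 1895 for Pu.1. H3K27me3, at 707 and 821 against 2862 and 1494, and H3K27ac, at 447 and 875 against 947 and 2887, were lost there at far lower values. What makes the first 3 antibodies alike was not tested. With values this close for all 3, a change particular to H3K9me3 cannot be read from this site.

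**Figure D2:**
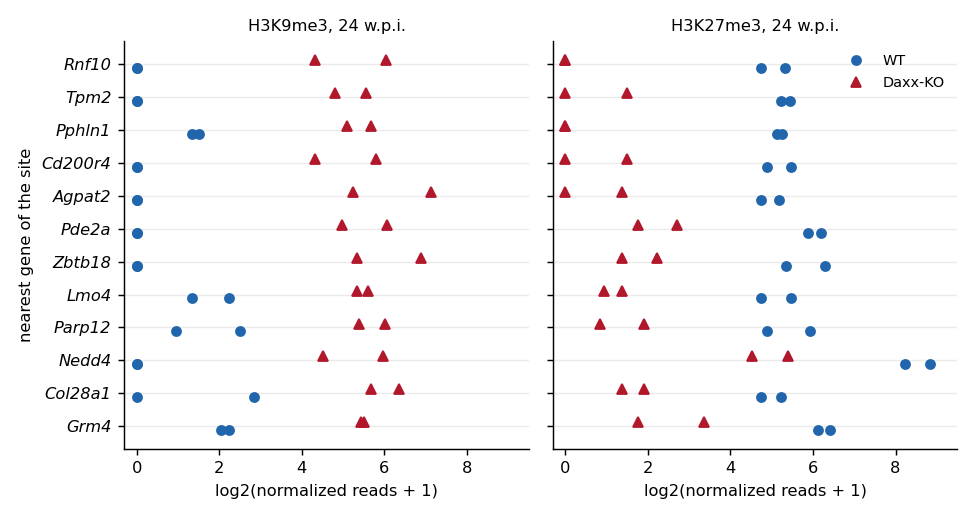
The log2 of normalized reads plus 1 in each of the 4 mice at 24 w.p.i., for H3K9me3 (left) and H3K27me3 (right), at the 12 sites with the largest exchange score, named by the nearest gene. Daxx-KO mice are triangles and WT mice circles, and the groups do not overlap at any of the 12 sites because the sites were ranked by that separation.

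At the edge of the rule, the separation was within the spread of the mice. At a site just inside, chr7:79641751-79642400 nearest to Ticrr, a gene of replication initiation, H3K9me3 was at 31.88 and 141 in Daxx-KO, against 15.5 and 31.86 in WT. Just outside, at chr10:81242101-81242700, H3K27me3 was at 293 and 298 in Daxx-KO, against 298 and 480 in WT, with the groups overlapping by less than 1 read. H3K9me3 there was at 23.6 and 49.0 against 0 and 0.

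Larger shares of the exchange sites than of the other H3K9me3 gains lay at promoters and in CpG-rich DNA. Within 1 kb of an annotated start site lay 1876 of the 7998 sites, or 23.5% (95% Wilson interval 22.5 to 24.4%), against 11.6% of the other H3K9me3 gains and 7.87% of the H3K9me3 losses. It was 18.5% of the other H3K27me3 losses and 13.4% of the H3K27me3 gains. A further 42.1% of the exchange sites lay in gene bodies and 34.4% outside genes. CpG-rich sites, with a GC content of at least 50% and an observed over expected CpG ratio of at least 0.6, were 7.94% of the exchange sites, 1.73% of the other H3K9me3 gains and 5.58% of the other H3K27me3 losses. Sites that were at least 50% repeat-masked were 10.3% of the exchange sites, close to the 9.93% of the other H3K27me3 losses and below the 21.7% of the other H3K9me3 gains. The median GC content was 51.1%, 47.0% and 48.3% in these 3 sets, and the median width 850 bp at the exchange sites and 750 bp at the other gains. At promoters and in repeats the shares of the exchange sites were closer to those of the H3K27me3 losses than to those of the H3K9me3 gains. The intervals cover counting error only, neighbouring sites are not independent, and no test of these differences was run.

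**Figure D3:**
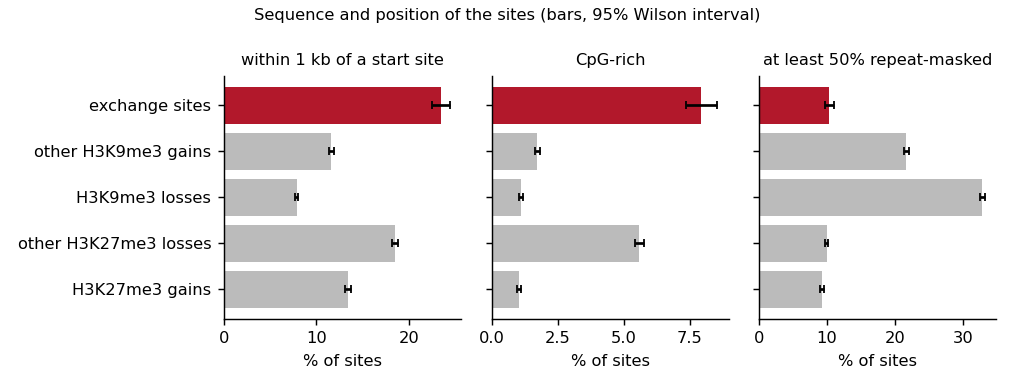
Share of sites within 1 kb of a start site, CpG-rich or at least 50% repeat-masked, with 95% Wilson intervals, for the exchange sites and 4 other sets of listed sites at 24 w.p.i. The exchange sites, at 23.5%, 7.94% and 10.3%, are the highest set in the first and second panels and lie with the H3K27me3 sets in the third.

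Most exchange sites were scattered. Joined over gaps of up to 1 kb they formed 7592 groups, and 3314 sites had no other within 50 kb. The density was 1.92 to 4.41 sites per Mb on 18 of the 19 autosomes and 7.02 on chromosome 17. There, exchange sites were 20.9% of the H3K9me3 gains, against 7.44 to 13.5% on the other autosomes. Many of these lay in chr17:13000001-15000000, a block whose 1-Mb bins held 132 and 138 sites, while the next densest bin of the genome, on chromosome 8, held 29. Without the block chromosome 17 held 4.27 per Mb. The block held 270 exchange sites (3.38% of all), nearest to 16 of its 20 protein-coding genes, and they were wide, with a median of 1450 bp.

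In the block, the exchange was nearly uniform in direction at 24 w.p.i. The block was picked as the neighbouring 1-Mb bins with the most exchange sites. That choice favours H3K9me3 gains and H3K27me3 losses at this time, so their shares here are a description. Of 447 listed H3K9me3 sites 432 were gains and 15 losses, and of 407 listed H3K27me3 sites 401 were losses and 3 gains. Elsewhere the H3K9me3 gains were 46.8% and the H3K27me3 losses 56.7% of the listed sites. The median H3K9me3 over the listed sites of the block was 154 and 133 normalized reads in Daxx-KO, against 43.5 and 22.5 in WT. The median H3K27me3 was 12.8 and 23.9 in Daxx-KO, against 82.2 and 72.8 in WT. At the exchange sites of the block 21.4% of the WT level of H3K27me3 was left, against 38.4% over all exchange sites. H3K27ac was mostly lost there as well, with 178 losses and 40 gains among 220 listed sites, where 55.9% were losses and 41.3% gains elsewhere.

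Of the 8 genes nearest to the most exchange sites, Vrk1 alone lies outside chromosome 17, and 6 lie in this block. Smoc2, which encodes a secreted calcium-binding matrix protein, was nearest to 49, with median H3K9me3 of 176 and 142 in Daxx-KO, against 34.2 and 22.5 in WT. Its H3K27me3 was at 11.6 and 27.1 against 88.7 and 81.4. Dact2, an antagonist of Wnt and Nodal signalling, was nearest to 41, among them chr17:14195151-14199750, where the marks overlapped over 3450 bp and H3K9me3 was at 1350 and 865 in Daxx-KO, against 333 and 107 in WT. Tcp10c, a gene of the t-complex region, was nearest to 40 and had the highest H3K9me3 of the group, 1041 and 809 against 399 and 427. Afdn, which encodes the junction protein afadin, was nearest to 31, where H3K27me3 was at 52.7 and 90.2 against 232 and 214. Gm7168, a predicted gene, followed with 23, Thbs2, which encodes thrombospondin 2, with 22, and Agpat4, a phospholipid acyltransferase gene outside the block, with 19. Vrk1 on chromosome 12, a kinase gene, was nearest to 23. There WT already carried H3K9me3, at 90.2 and 78.7 against 137 and 151 in Daxx-KO.

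The H3K9me3 gains of the block were also found in other Daxx-KO mice at earlier times. Whether these mice had lost H3K27me3 there by then could not be checked, because no earlier comparison of this mark between the genotypes was used. At 3 w.p.i. 321 of its 332 listed H3K9me3 sites were gains, where 78.5% were elsewhere, with medians of 24.4 and 23.3 in Daxx-KO, against 3.5 and 3.77 in WT. At 8 w.p.i. 337 of 364 were gains and 3 losses, where 57.4% and 31.6% were elsewhere, with medians of 33.5, 33.6 and 28.1 in Daxx-KO, against 3.16, 3.37 and 5.0 in WT. The groups were far apart at both times. In DKO against WT at 8 w.p.i. 65 of 114 listed H3K9me3 sites were gains and 3 losses, beside 47.7% and 17.9% elsewhere, and 58 of these gains lay between 13 and 13.5 Mb. In DKO against Daxx-KO 16 of 91 were gains and 48 losses, beside 44.9% and 24.7% elsewhere. H3K27me3 in DKO against WT had 166 losses among 187 sites, beside 42.4% elsewhere, and against Daxx-KO 160 gains among 167 sites, beside 55.4% elsewhere. These 160 gains all lay between 13.5 and 15 Mb. Between 13 and 13.5 Mb all 26 sites listed against WT were losses and 0 were listed against Daxx-KO, so the block was not uniform in DKO. In the second of these tables its medians were 23.9, 36.2 and 28.5 in DKO and 3.29, 6.52 and 6.58 in Daxx-KO. These comparisons share the DKO libraries, and the first shares the WT libraries with that of Daxx-KO. The block ends 18.9 Mb from Daxx on the same chromosome. The floxed line was made in C57BL/6N cells, and an effect of Daxx loss and one of DNA linked to the floxed allele cannot be told apart here. Within 5 Mb of Daxx there were 53 exchange sites and 282 other H3K9me3 gains. On the whole of chromosome 17 there were 667 and 2517, and on all autosomes 7998 and 62589.

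**Figure D4:**
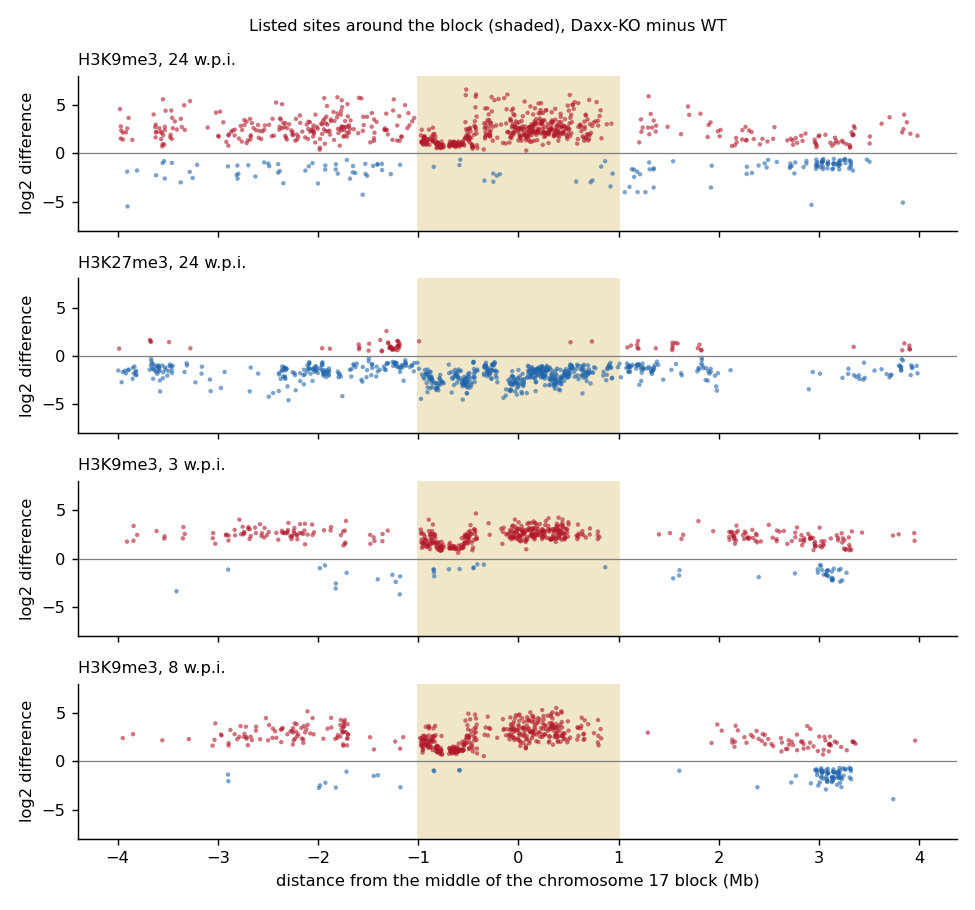
Log2 difference, Daxx-KO minus WT, of every listed site within 4 Mb of the middle of the chromosome 17 block (shaded), for H3K9me3 and H3K27me3 at 24 w.p.i. and H3K9me3 at 3 and 8 w.p.i., with gains in red and losses in blue. In the shaded 2 Mb, picked for its number of exchange sites, 432 of 447 H3K9me3 sites at 24 w.p.i. lie above 0. Of 407 H3K27me3 sites 401 lie below it.

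Few exchange sites were listed for H3K9me3 at the earlier times. Their share of gains was above that of all listed sites at 8 w.p.i., and at 3 w.p.i. it depended on the settings. These are other mice, so the values did not choose the sites. The libraries were shallower, with 1.21 to 3.00 mean reads per window at 3 w.p.i. and 1.11 to 1.86 at 8 w.p.i. At 24 w.p.i. it was 5.22 to 9.11, and the part of depth in the low number of listed sites was not tested. At 3 w.p.i. 485 exchange sites had a listed H3K9me3 site, and 368 of them gained and 115 lost H3K9me3. Of all listed sites 78.6% were gains and 21.0% losses. Of the changes at exchange sites 76.2% (72.2 to 79.8%) were gains, against 78.9% over all listed sites. Without the block it was 214 gains and 113 losses, or 65.4%, below the share of all listed sites. With the block kept, other settings put the share above 78.9%. It was 90.3% with a margin of 1.5 times in both marks, 84.6% with each library divided by its median and 86.9% scaled by depth. These settings were not combined with leaving out the block. At 8 w.p.i. 558 had a listed site, with 483 gains and 36 losses, where 57.6% and 31.5% of all listed sites were gains and losses. The gains were 93.1% (90.5 to 94.9%) of the changes, against 64.7% over all listed sites and 80.0% at the other H3K9me3 gains. Without the block it was 90.1%. Of the exchange sites 190 gained H3K9me3 at both times, 121 of them in the block.

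Named sites show how the early and late values ran. At chr17:14035601-14038250, nearest to the predicted gene Gm7358, H3K9me3 was at 23.3 and 35.0 in Daxx-KO, against 1.75 and 4.64 in WT at 3 w.p.i. At 8 w.p.i. it was at 30.7, 34.0 and 16.0 in Daxx-KO, against 0.79, 0 and 0 in WT. At 24 w.p.i. it was at 326 and 265 against 54.4 and 46.9, with H3K27me3 at 7.98 and 1.84 against 102 and 70.0. Values of different times were normalized apart and are compared within a time only. At chr13:62853801-62858800 over Fbp2, which encodes a gluconeogenic fructose bisphosphatase, all 3 times separated the groups as well. H3K9me3 there was at 54.7 and 58.3 against 14.0 and 22.0 at 3 w.p.i., and at 44.3, 46.9 and 29.4 against 3.16, 5.06 and 2.5 at 8 w.p.i. At 24 w.p.i. it was at 2345 and 1614 against 424 and 399, and H3K27me3 at 11.2 and 53.4 against 134 and 168.

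In DKO mice, losses of H3K27me3 outnumbered gains against WT, and losses of H3K9me3 outnumbered gains against Daxx-KO. In DKO against WT at 8 w.p.i., H3K27me3 was lost at 452 and gained at 188 of the 742 exchange sites that had a listed site, where 42.5% and 46.8% of all listed sites were losses and gains. The losses were 70.6% (67.0 to 74.0%) of the changes, against 47.6% over all listed sites, 58.5% at the other H3K9me3 gains and 55.5% at the other H3K27me3 losses, and 65.7% without the block. In DKO against Daxx-KO, H3K27me3 was gained at 343 and lost at 196 of 617, beside 55.5% and 28.7% of all listed sites, and without the block at 252 and 196. H3K9me3 in DKO against WT was gained at 156 and lost at 43 of 315, beside 47.7% and 17.9%. H3K9me3 in DKO against Daxx-KO was gained at 66 and lost at 132 of 321, beside 44.8% and 24.8%, and without the block at 61 and 98 of 271. In that last comparison gains outnumbered losses over all listed sites and losses outnumbered gains at the exchange sites, but also at the other H3K9me3 gains (1331 gained, 1510 lost) and the other H3K27me3 losses (181 gained, 253 lost). The levels were close, with medians of 16.3, 16.3 and 15.3 in DKO and 20.1, 20.5 and 15.4 in Daxx-KO over the listed sites at exchange sites. The DKO H3K9me3 libraries were shallow, with 0.20 to 3.29 mean reads per window, against 5.22 to 9.11 for H3K9me3 at 24 w.p.i. The part of depth in these counts was not tested.

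H3K27ac, a mark of active promoters and enhancers, had a listed site at 3308 exchange sites at 24 w.p.i. in the same mice. It was gained at 1610 and lost at 1389 of them, where 41.3% of all listed H3K27ac sites were gains and 56.0% losses. Losses were therefore 46.3% (44.5 to 48.1%) of the changes, against 57.5% over all listed sites, 55.0% at the other H3K9me3 gains and 48.0% (47.3 to 48.7%) at the other H3K27me3 losses, so that the exchange sites stood near the last of these. At the promoters among the exchange sites 684 gained and 304 lost H3K27ac, and outside promoters 926 gained and 1085 lost it. Where only differences of at least 1.5 times between the groups were counted, losses were 52.1% of the changes and outnumbered gains. At 3 w.p.i., counted without that margin, losses outnumbered gains, with 340 gains and 874 losses among 1251 exchange sites. Of all listed sites 39.2% were gains and 58.4% losses at that time. Losses were 72.0% of these changes, against 65.8% at the other H3K9me3 gains and 66.3% at the other H3K27me3 losses. At promoters 74 gained and 321 lost H3K27ac at that time.

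The gains of H3K27ac that were largest were small in level. At chr17:14279101-14280150, over the start of Smoc2 in the block, H3K27ac was at 29.97 and 52.7 in Daxx-KO, against 0 and 0.79 in WT. H3K9me3 was at 254 and 77.1 against 0 and 13.1, and H3K27me3 at 405 and 855 against 1368 and 1708. At the sites with the largest losses none was left in Daxx-KO. At chr16:22106601-22107250 in an intron of Igf2bp2, an RNA-binding protein gene, H3K27ac was at 0 and 0 in Daxx-KO, against 69.3 and 70.4 in WT, while H3K9me3 was at 52.3 and 43.8 against 3.11 and 0. The site at chr2:174251701-174252300, nearest to the imprinted gene Gnas, had H3K27ac at 0 and 0 against 53.6 and 52.2. These sites were picked for the size of this difference.

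H3.3, the histone that Daxx deposits, and Pu.1, a master transcription factor of myeloid cells encoded by Spi1, were mostly gained at 3 w.p.i., and at 24 w.p.i. Pu.1 was mostly lost while H3.3 leaned neither way. At 24 w.p.i. H3.3 was gained at 1349 and lost at 1387 of 3048 exchange sites with a listed site, beside 51.3% and 47.0% of all listed sites. Pu.1 was gained at 1094 and lost at 1785 of 3252, beside 46.9% and 51.3%, so that 62.0% (60.2 to 63.8%) of its changes were losses, against 52.2% over all listed sites, 57.0% at the other H3K9me3 gains and 59.2% at the other H3K27me3 losses. The median Pu.1 over the sites listed there was 30.0 and 31.3 in Daxx-KO, against 50.4 and 47.4 in WT. At 3 w.p.i. both proteins were mostly gained. H3.3 was gained at 2108 and lost at 784 of 3062 exchange sites, beside 57.7% and 40.7% of all listed sites, and Pu.1 was gained at 2385 and lost at 820 of 3435, beside 54.1% and 44.0%. The gains were 72.9% of the H3.3 and 74.4% of the Pu.1 changes, against 66.7% and 64.6% at the other H3K9me3 gains and 66.1% and 63.9% at the other H3K27me3 losses. At promoters the gains were 85.1% of the H3.3 changes and 83.9% of the Pu.1 changes. The WT libraries of these antibodies at 3 w.p.i. differed in depth, at 22.9 and 3.06 mean reads per window for H3.3 and 33.8 and 2.75 for Pu.1, which was not tested as a source of these counts.

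**Figure D5:**
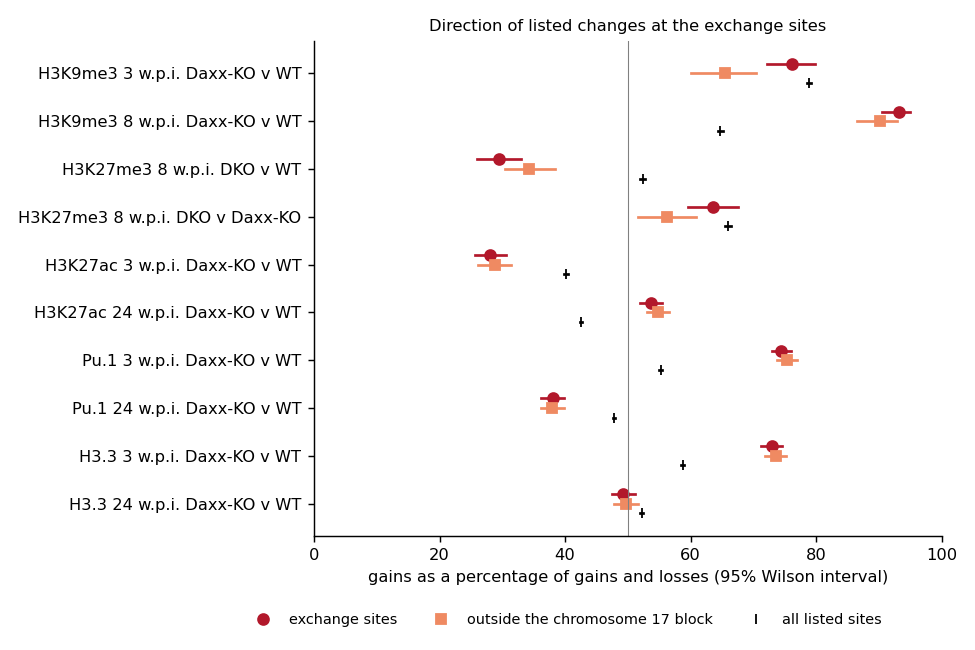
Gains as a percentage of gains and losses at the exchange sites, with and without the chromosome 17 block, and over all listed sites of each table, with 95% Wilson intervals. All were counted without a margin between the groups. With a margin of 1.5 times for H3K27ac at 24 w.p.i., losses were 52.1% of its changes at the exchange sites. For H3K9me3 at 8 w.p.i. the exchange sites lie at 93.1% and all listed sites at 64.7%, and between 3 and 24 w.p.i. the exchange sites go from 28.0% to 53.7% for H3K27ac, from 74.4% to 38.0% for Pu.1 and from 72.9% to 49.3%, with an interval that includes 50%, for H3.3.

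By nearest gene, the exchange sites reached 4781 of 20780 protein-coding genes on chromosomes 1 to 19, or 23.0%. Another H3K9me3 gain was nearest to 65.0% of the 20780 genes and another H3K27me3 loss to 68.8%. Members of 14 gene lists are given beside the share of 23.0%, without a test, and gene length and spacing were not taken into account. Of 185 transcription factors of non-blood development, classical Polycomb targets, 79 (42.7%) had an exchange site, while 93.0% had another H3K9me3 gain and 97.8% another H3K27me3 loss. Of 79 morphogens and their antagonists 35 (44.3%) had one, while 79.7% had another H3K9me3 gain and 93.7% another H3K27me3 loss. The Hox clusters stood lower, with 7 of 39 genes (17.9%). At chr11:96365701-96366600 over Hoxb1, a body-axis gene, H3K27me3 remained at 1125 and 1072 in Daxx-KO against 1376 and 1608 in WT, and H3K9me3 was at 34.4 and 126 against 6.22 and 3.75. At chr2:74700251-74701000, nearest to Hoxd9, H3K27me3 also stayed high, at 772 and 711 against 1014 and 1069, while H3.3 was lost, at 15.5 and 0 against 84.0 and 102. At chr11:96332851-96333850 in Hoxb3 the level was low and 53.4% was left, at 38.3 and 34.96 against 72.8 and 64.3. At chr1:120833601-120834450, nearest to En1, a homeobox gene of the midbrain and limb, H3K27me3 was at 7.18 and 1.84 against 39.2 and 24.3. At chr3:104945951-104946800 in Wnt2b, a Wnt ligand, H3K9me3 was at 31.9 and 54.2 against 9.33 and 0, and H3.3 was gained, at 172 and 165 against 31.4 and 18.8.

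Regulators of blood cells also held exchange sites, while none was nearest to Daxx or to Fbp1. Among 54 stem-cell and myeloid regulators 26 (48.1%) had one, among 30 B-lineage genes 12 (40.0%) and among 27 T-lineage genes 10 (37.0%). Another H3K27me3 loss was nearest to 96.3%, 80.0% and 77.8% of these lists, against 68.8% of all genes. For another H3K9me3 gain the shares were 64.8%, 63.3% and 55.6%, against 65.0%. Shares above that of all genes were thus also found at the other H3K27me3 losses. At chr2:91098701-91099400 in an intron of Spi1, H3K9me3 was at 51.0 and 50.0 in Daxx-KO, against 0 and 0 in WT, and H3K27me3 at 13.6 and 25.8 against 85.9 and 57.1. H3K27ac was gained at this site, at 252 and 310 against 183 and 168. In Lmo2, a partner of Tal1 in stem cells, the site at chr2:103961101-103961850 had H3K9me3 at 30.6 and 89.6 against 4.66 and 0. There H3K27ac was lost, at 178 and 129 against 341 and 358, and Pu.1 too, at 0 and 1.04 against 41.7 and 46.3. At chr11:11685751-11686450, over a promoter of Ikzf1, which encodes the lymphoid regulator Ikaros, H3K9me3 was at 25.5 and 55.2 against 0 and 1.87, and H3K27me3 at 4.79 and 4.6 against 36.4 and 30.0. H3K27ac at this promoter was lost at 3 w.p.i., at 45.5 and 28.0 against 89.2 and 141, and gained at 24 w.p.i., at 679 and 667 against 565 and 433. At chr16:16863251-16864050, near the start of Igll1, a part of the pre-B-cell receptor, H3K27me3 was at 3.19 and 5.52 against 72.8 and 34.3. Prdm16, a regulator that stem cells need, held a wide site at chr4:154528651-154530200 in an intron, with H3K9me3 at 56.7 and 196 against 15.5 and 15.0 and H3K27me3 at 20.7 and 29.4 against 162 and 82.8. H3.3 was gained there, at 64.0 and 45.3 against 7.38 and 15.0.

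The T-lineage sites differed in the other antibodies. At chr9:48799301-48799950 in an intron of Zbtb16, which encodes the innate-like T-cell factor PLZF, H3K9me3 was at 38.3 and 68.8 against 4.66 and 0 and Pu.1 was lost, at 13.6 and 27.2 against 73.4 and 82.1. At chr2:26528151-26529400, nearest to the receptor gene Notch1, H3K9me3 was at 77.2 and 89.6 against 9.33 and 5.62, and H3K27me3 at 14.4 and 15.6 against 56.0 and 39.98. H3K27ac was gained at this site at both times, at 30.04 and 38.2 against 12.9 and 16.6 at 3 w.p.i. and at 109 and 145 against 73.7 and 70.4 at 24 w.p.i. Near Cd3e, a subunit of the T-cell receptor complex, chr9:45013251-45014300 lost H3.3, at 8.83 and 0 against 32.3 and 43.3.

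The machinery of the marks themselves was represented near the overall share. Of 35 Polycomb genes 10 (28.6%) had an exchange site, and of 39 genes of H3K9 methylation and H3.3 deposition 9 (23.1%). At chr6:47594201-47595300 over a promoter of Ezh2, the H3K27 methyltransferase, H3K9me3 was at 25.5 and 79.2 against 1.55 and 0, H3K27me3 at 27.1 and 23.0 against 75.6 and 68.5, and H3K27ac was gained, at 1652 and 1692 against 1301 and 887. The site at chr1:180785401-180786550, nearest to the H3.3 gene H3f3a, had H3K9me3 at 37.0 and 117 against 3.11 and 8.43 and H3K27me3 at 16.8 and 9.2 against 84.0 and 68.5. Among 11 cell-cycle inhibitors 5 had one, including Cdkn1b, which encodes p27, where H3K9me3 over the promoter at chr6:134919301-134921300 was at 119 and 211 against 21.8 and 0. Of 40 nucleic-acid sensing and interferon genes 8 (20.0%) had one, among them Trex1 and Adar.

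Gene families that H3K9me3 covers in many cells were among the least reached. Of 458 Zfp genes, which encode zinc-finger proteins, 80 (17.5%) had an exchange site, of 1453 olfactory and vomeronasal receptor genes 47 (3.23%) and of 56 clustered protocadherins 2 (3.57%), Pcdhb4 and Pcdhgb1. Another H3K27me3 loss was nearest to only 16.0% of the receptors and 16.1% of the protocadherins, against 68.8% of all genes. Of 216 ion channel and neurotransmitter receptor genes 62 (28.7%) had one. At the protocadherin sites WT already carried H3K9me3, at 46.6 and 31.9 for Pcdhb4 against 91.2 and 121 in Daxx-KO.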

How the data were processed

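CUT&Tag libraries of bone-marrow HSPCs were compared, with 62 samples in the series. Per the sample labels, reads were handled with CASAVA 1.8.4, cutadapt 1.13, STAR 2.5.3 and bedtools on mm10. The study's methods name CASAVA for other assays, and which aligner served the CUT&Tag reads was not established. Per the headers of the comparisons, sites were called with diffReps 1.55.6 (600 bp windows, fragment size 100, window p-value cutoff 0.0001). The deposited tables hold called sites only, so a site that is not listed has no value here. Per library the authors deposited reads per site divided by a normalization constant, called normalized reads here. The deposited signal columns, which the authors made as group means of the normalized reads, served only to check the per-library values, and the largest difference was 0.0067. The columns of the authors' own comparisons (direction, log2 fold change, p-value and adjusted p-value) were not used. Reads of chromosomes X and Y had been removed at 24 w.p.i. The mean reads per window were 5.22 to 9.11 for H3K9me3 and 4.27 to 9.58 for H3K27me3 at 24 w.p.i., and single sites of low reads are imprecise. Replicates are separate samples by their labels.

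With Python 3.11.15, numpy 2.4.6, pandas 2.3.3 and scipy 1.17.1, sites were classed by whether the values of the groups overlapped and joined by overlap of at least 1 bp. The functions were tested on simulated data. Log2 differences had a pseudocount of 1. Genes and start sites came from GENCODE, sequence from RefSeq GRCm38. A promoter lies within 1 kb of a start site. No p-value was computed. The members, gene lists and comparisons were chosen with earlier results of these data known. The sites named were the 12 with the largest exchange score, the 8 genes with the most sites, up to 3 sites per gene list, Fbp1, Fbp2, Daxx and Spi1, up to 5 sites gained at 3, 8 and 24 w.p.i., those nearest the threshold, those with the largest H3K27ac differences and the widest overlaps, and some of these are given. The alternatives were other margins, scalings, overlaps and promoter widths and leaving out each library. Scaling by depth and leaving out the chromosome 17 block were chosen after seeing the data. 1 further table (Daxx-KO and WT, H3K27me3 at 8 w.p.i.) was left out, as its header names H3K9me3 libraries as its controls. Results of some named sites are not reported here.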

Additional observations from a re-analysis of the deposited data

Results flagged for a closer look

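At the exchange sites listed at both times, the direction of H3K27ac, H3.3 or Pu.1 at 3 w.p.i. was in part the opposite of that at 24 w.p.i., with every Daxx-KO library on one side of every WT library at each time. H3K27ac was lost at 3 and gained at 24 w.p.i. at 230 sites, 135 of them promoters, and gained and then lost at 52, beside 228 sites lost and 103 gained at both times. H3.3 was gained and then lost at 385 sites and lost and then gained at 122, beside 384 gained and 161 lost at both times, so that its early gains divided about evenly. Pu.1 was gained and then lost at 574 sites and lost and then gained at 104, beside 357 gained and 219 lost at both times. The difference between the times was not tested, the mice were different, and the WT libraries of H3.3 and Pu.1 at 3 w.p.i. differed in depth. Switches were not counted over all listed sites, so they cannot be read as particular to the exchange sites. Over all listed sites gains were 39.2% at 3 and 41.3% at 24 w.p.i. for H3K27ac. They were 57.7% and 51.3% for H3.3, and 54.1% and 46.9% for Pu.1.

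H3K9me3, which the choice of sites makes a gain at 24 w.p.i., was lost at 115 exchange sites at 3 w.p.i. and at 36 at 8 w.p.i. These differences between times were not tested either.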

How the results depend on the processing

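Of 172 values recomputed under alternatives, 150 stayed within the spread between mice (log2 differences), the 95% Wilson interval of the main share (shares) or 1.5 times (the number of sites), and 22 went beyond. With a margin of 1.5 times between the groups in both marks there were 5098 exchange sites, the median log2 difference of H3K27me3 was -1.53, promoters were 22.3%, and the gains among H3K9me3 changes were 90.3% at 3 w.p.i. and 95% at 8 w.p.i. With each library divided by its median, the H3K27me3 difference was -1.07, promoters were 21.7% and the 3 w.p.i. gains 84.6%, and 6759 of the sites were shared. Scaled by depth, the values were -1.14, 21.7% and 86.9%, 6031 sites were shared, and the H3K27me3 losses in DKO against Daxx-KO were 32.1% of the changes. In each of these settings the 3 w.p.i. gains lay above the 78.9% of all listed sites, while the main share of 76.2% was below it. Without the chromosome 17 block the gains were 65.4% at 3 and 90.1% at 8 w.p.i., and the H3K27me3 losses 65.7% in DKO against WT and 43.8% in DKO against Daxx-KO. A margin of 1.5 times in the H3K27ac table gave 52.1% losses against 46.3%, which turned the balance from gains to losses. Promoters were 34.5% within 3 kb, 16.7% within 250 bp and 11.5% with start sites of protein-coding genes only. The cause of these shifts was not tested.

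Leaving out each library in turn gave 8087 to 8475 sites, log2 differences of 1.91 to 3.08 for H3K9me3 and -1.45 to -1.21 for H3K27me3, promoter shares of 23.4 to 25.0%, and 65.6 to 70.8% H3K27me3 losses in DKO against WT, the lowest without DKO replicate 3. The labels pair no WT mouse with a Daxx-KO mouse, and no paired analysis was made. With 2 mice per genotype and few reads per site, single sites are weakly determined, and sites that were not listed cannot be called unchanged.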
